A study of Mus musculus with 16 samples.

Results

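The genes described here set how much sterol a cell makes, takes in and exports. They are Srebf2, Scap, Insig1, Insig2 and Rnf145, which act in the control of sterol synthesis, Stard4 and Mylip, which act in sterol transport and uptake, and Abca1 and Abcg1, which act in efflux. The 9 genes were chosen by symbol and role from the 18480 entries of each library, with earlier results of the same libraries known. In those results Insig1 was noted as higher, and Rnf145 as lower, in tumours given exercise with anti-PDL1 than in tumours given anti-PDL1 alone, so that contrast is described below without a test. All 9 reached at least 1 FPKM in at least 4 libraries, as did 11868 entries in all, which were the entries tested. FPKM, the deposited unit, counts fragments relative to both transcript length and library size.

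The 16 RNA libraries came from subcutaneous tumours of MC38, a cell line derived from a mouse colon carcinoma. The labels name 4 groups of 4 libraries: control, exercise, anti-PDL1, and exercise with anti-PDL1, which is called the combination. Anti-PDL1 is an antibody against a ligand that restrains T cells, whereas the title of the series refers to blockade of its receptor, PD-1. The labels give no mouse strain, age or sex, no exercise regimen, no antibody clone, dose or time, no control antibody, and no statement that libraries came from separate animals. The p-values therefore reflect the spread among these libraries alone, and that spread could be technical. All 4 groups share the same grafted line, and the tumours were bulk tissue, in which fewer cells of a type and less RNA per cell cannot be told apart.

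SREBP2, the product of Srebf2, is a transcription factor held in the endoplasmic reticulum membrane by its escort SCAP and by the INSIG proteins while sterol is plentiful. When sterol runs low, SCAP carries SREBP2 to the Golgi, where proteases release the part that enters the nucleus and switches on genes of sterol synthesis and uptake, among them INSIG1, which closes a feedback loop. When sterol is in excess, the LXR receptors switch on the exporters ABCA1 and ABCG1 and the ligase MYLIP, which marks lipoprotein receptors for breakdown. Much of this control acts on proteins, which were not measured.

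The promoters of Srebf2, Insig1 and Insig2 are shown because the results turn on the transcription factor and its 2 INSIG partners. The RefSeq table for GRCm38.p6 held promoter entries for 7 of the 9 genes and none for Stard4 and Abcg1. Each window runs from 250 bases before the start to 50 bases after it, 5′ to 3′ on the strand of the gene. Capitals mark matches on either strand to 3 motifs, which do not overlap in these windows. The first is ATCACCCC, a core of the sterol regulatory element. The second is CCAAT, the box read by NF-Y, which reads ATTGG on the opposite strand. The third is CACGTG, an E-box. The windows are chr15:82147019-82147318 on the plus strand for Srebf2, chr5:28071162-28071461 on the plus strand for Insig1, and chr1:121332540-121332839 on the minus strand for Insig2, which has 3 entries.
Srebf2: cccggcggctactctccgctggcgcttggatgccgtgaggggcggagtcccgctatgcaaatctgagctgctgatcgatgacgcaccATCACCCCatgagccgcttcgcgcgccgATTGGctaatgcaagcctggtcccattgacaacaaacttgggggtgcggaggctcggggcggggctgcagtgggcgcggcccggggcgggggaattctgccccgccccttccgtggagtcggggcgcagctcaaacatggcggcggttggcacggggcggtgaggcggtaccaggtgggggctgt
Insig1: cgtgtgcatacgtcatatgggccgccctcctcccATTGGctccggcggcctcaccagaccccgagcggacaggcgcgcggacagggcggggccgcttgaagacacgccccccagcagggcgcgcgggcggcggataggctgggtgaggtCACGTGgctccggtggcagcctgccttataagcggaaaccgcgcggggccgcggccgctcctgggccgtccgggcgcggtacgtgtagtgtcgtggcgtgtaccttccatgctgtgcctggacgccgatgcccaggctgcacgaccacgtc
Insig2: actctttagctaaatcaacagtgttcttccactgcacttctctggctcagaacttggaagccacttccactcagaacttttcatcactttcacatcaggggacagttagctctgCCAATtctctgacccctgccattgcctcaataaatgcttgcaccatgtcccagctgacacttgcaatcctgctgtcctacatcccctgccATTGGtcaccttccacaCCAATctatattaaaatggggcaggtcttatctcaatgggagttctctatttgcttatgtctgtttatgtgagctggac
The Srebf2 window held ATCACCCC at 163 bases before the start and ATTGG at 135 bases before it, so that the pair lay close together. The Insig1 window held ATTGG at 216 bases and CACGTG at 101 bases before the start. The Insig2 window shown held CCAAT at 136 and 29 bases and ATTGG at 46 bases before the start. The other Insig2 entries held no match to any of the 3 motifs. The start used for the window shown is not the 5′ end of the annotated gene, which is at 121332662. Of 32851 promoter windows of 300 bases in the table, 0.77% held ATCACCCC, 37.4% held CCAAT and 7.15% held CACGTG. A paired element of the LXR type, 2 copies of AGGTCA in a row 4 bases apart, was searched on both strands, stood in 0.0152% of the windows and in none of the windows of the 7 genes searched. A match is a description of the letters and not a bound site.

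A further pair of sequences links 2 of the genes directly. An intron of Srebf2 carries the microRNA miR-33, which is known to repress Abca1. The mature strand lies at chr15:82198127-82198147 on the plus strand within Srebf2, and its seed (bases 2 to 8) is in capitals. The second sequence is positions 131 to 160 of an annotated Abca1 3′ UTR (3156 bases, GENCODE M21 models), in which capitals mark the letters paired with that seed.
miR-33-5p: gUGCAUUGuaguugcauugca
Abca1 site: tattCAATGCAATGCActtCAATGCAacga
The Abca1 stretch held 3 matches to the seed, of which the first pair share letters. Of 44587 annotated 3′ UTRs, 5.86% held at least 1 match. The microRNA itself was not measured in these libraries, which were deposited as gene values.

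FPKM summed to between 478672 and 529732 per library. No read counts came with them, so the depth of each library is unknown. Controls 1 and 2 stood apart from the other libraries on the first principal component of the tested genes (30.1% of the variance), at 30.8 and 41.4, with exercise 1 next at 17.0 and the rest between -26.3 and 7.43. The same 2 controls held the highest summed level of 15 macrophage markers, 1644 and 2086 FPKM against 417 to 1356 elsewhere. Differences from control without these 2 libraries are given beside the marker values further on. The 6 measured of 7 epithelial markers summed to only 1.54 to 8.07 FPKM per library, although the line is a carcinoma line.

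**Figure D1:**
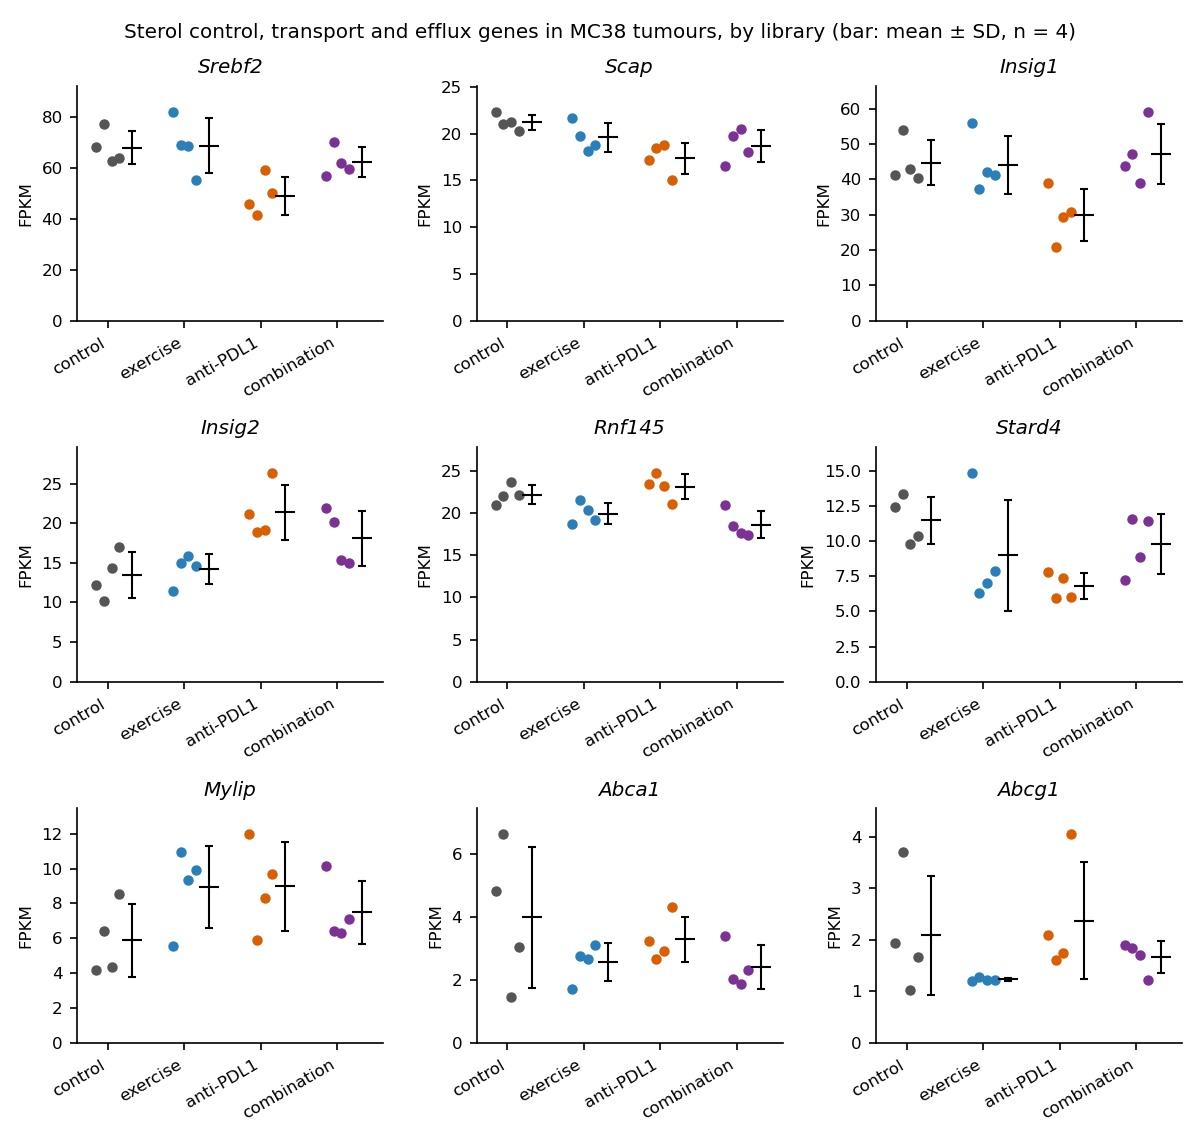
FPKM of the 9 genes (vertical axes, each from 0) in the 4 libraries of each group (horizontal axes). Points are libraries in the order of their replicate numbers, and bars are the group mean ± SD. Srebf2, Scap, Insig1 and Stard4 were lower in every anti-PDL1 library than in every control, and Insig2 was higher.

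Anti-PDL1 against control asks how the antibody alone related to these genes, and it gave the widest differences among the 9. Srebf2, Scap, Insig1 and Stard4 were lower in every anti-PDL1 library than in every control library, at between 59.0% and 82.0% of the control mean. Insig2 was higher in every anti-PDL1 library, at 159% of the control mean. The 2 INSIG genes thus lay in opposite directions. None of these differences passed the threshold of an adjusted p of 0.05, so no change is called for any of the 9. By limma with Benjamini-Hochberg adjustment over all tested genes, 0 of 9 passed, against 0.253% (30) of the 11868 genes. At an unadjusted p under 0.05, 6 of 9 passed, against 23.5% of all genes. Groups that did not overlap were seen for 4 of 9 genes in the lower direction, against 7.26% of all genes, and for 1 of 9 in the higher direction, against 3.57%. Leaving out a single library altered this in 2 cases: without control 4, Srebf2 and Insig2 passed (limma adjusted p = 0.047 and 0.031) among 768 of 11868 genes, and without exercise 1, which enters only the estimate of the spread, Srebf2, Insig2 and Stard4 passed (0.045, 0.041 and 0.031) among 317. The number of genes called thus grew across the whole table under these settings. The median difference over all genes was -0.04 on the log2(FPKM + 1) scale used for every difference here. The 9 genes were chosen with the lower sterol enzymes of this contrast known. Insig1, counted among the 6 and the 4, was noted in a contrast that holds the same anti-PDL1 libraries. The counts of the 9 set against all genes are therefore descriptions.

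Srebf2 (chr15:82147269-82205379) measured 68.2, 77.2, 62.8 and 64.0 FPKM in the 4 controls and 45.7, 41.6, 59.1 and 50.1 FPKM in the 4 anti-PDL1 libraries. Every anti-PDL1 library lay below every control, though anti-PDL1 library 3 came close to the lowest control. The mean was 68.0 ± 6.52 FPKM (SD, n = 4) in controls and 49.1 ± 7.52 (SD, n = 4) with anti-PDL1, a log2 difference of -0.47 (95% interval -0.73 to -0.21, limma adjusted p = 0.076). Exercise libraries measured 82.0, 69.1, 68.6 and 55.5 FPKM and combination libraries 56.8, 70.4, 62.2 and 59.5 FPKM. Both of these groups overlapped the controls, with log2 differences of 0.01 (-0.26 to 0.27) and -0.13 (-0.39 to 0.14). The order of means was exercise, control, combination and anti-PDL1, and libraries of neighbouring groups overlapped at each step.

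Scap (chr9:110333288-110384949), the escort and sterol sensor, varied least among the controls, at 22.3, 21.0, 21.2 and 20.3 FPKM. Its anti-PDL1 values were 17.2, 18.4, 18.8 and 15.1 FPKM, each below the lowest control. The log2 difference was -0.28 (-0.46 to -0.09, limma adjusted p = 0.10). The combination mean was 18.7 ± 1.74 FPKM (SD, n = 4) and the exercise mean 19.6 ± 1.53 FPKM (SD, n = 4), between the other 2 groups. Exons of Scap overlap those of 5830462I19Rik on the opposite strand, and whether the counting used strand is not given in the sources used here, so the level of Scap is uncertain by that share. No annotated exon of another gene overlaps the other 8 genes.

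Insig1 (chr5:28071412-28078662) encodes the retention factor that SREBP2 itself switches on, and it was the most abundant of the 9 after Srebf2. It measured 41.3, 54.1, 43.0 and 40.5 FPKM in controls and 39.0, 20.9, 29.4 and 30.8 FPKM with anti-PDL1. The groups did not overlap, but anti-PDL1 library 1 came within 2 FPKM of the lowest control. The log2 difference was -0.58 (-0.95 to -0.22, limma adjusted p = 0.091), and the anti-PDL1 mean was 67.1% of the control mean. Exercise libraries measured 56.1, 37.4, 42.2 and 41.2 FPKM, spread around the controls, with a log2 difference of -0.02 (-0.39 to 0.34). Combination libraries measured 43.9, 47.2, 39.0 and 59.1 FPKM, and their mean was 106% of the control mean, with a log2 difference from control of 0.07 (-0.30 to 0.44). The anti-PDL1 libraries enter both this test and the contrast for which Insig1 was noted, so its low values there are not independent of the choice of gene.

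Insig2 (chr1:121304353-121332662) encodes the other INSIG protein, whose gene is not driven by SREBP2 in the same way. It measured 12.2, 10.2, 14.3 and 17.0 FPKM in controls and 21.1, 18.9, 19.1 and 26.3 FPKM with anti-PDL1. Each anti-PDL1 library exceeded each control. The log2 difference was 0.64 (0.30 to 0.98, limma adjusted p = 0.070), with the lowest adjusted p of the 9 genes. Combination libraries measured 21.9, 20.1, 15.4 and 14.98 FPKM, with 2 libraries above every control and 2 inside the control range. That log2 difference was 0.41 (0.07 to 0.75, limma adjusted p = 0.60). Exercise libraries measured between 11.5 and 15.9 FPKM, all within the control range.

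The ratio of the 2 INSIG genes in each library set the anti-PDL1 libraries apart from all others, which neither level did alone. Insig1 stood at 3.39, 5.31, 3.00 and 2.38 times the level of Insig2 in controls, and at 1.84, 1.10, 1.54 and 1.17 times with anti-PDL1. Each anti-PDL1 library had a lower ratio than every library of the other 3 groups. The ratio was 2.49 to 4.88 with exercise and 2.01 to 3.95 in the combination, so those groups overlapped the controls. FPKM are per length, which allows the comparison between genes, and the ratio is given as a description because it was formed after the values were seen.

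**Figure D2:**
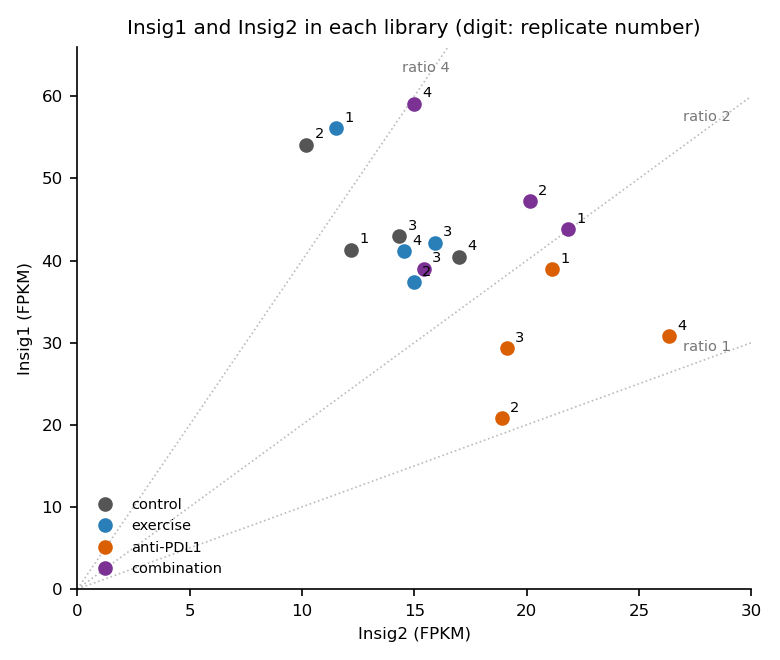
Insig1 (vertical axis, FPKM) against Insig2 (horizontal axis, FPKM) in the 16 libraries, coloured by group and numbered by replicate. Dotted lines mark equal Insig1 to Insig2 ratios, and the 4 anti-PDL1 libraries have ratios of 1.10 to 1.84, below all others.

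Rnf145 (chr11:44518793-44565520) encodes a ubiquitin ligase of the endoplasmic reticulum, known to act on SCAP and on the rate-limiting reductase of sterol synthesis. It measured 21.0, 22.04, 23.7 and 22.2 FPKM in controls and 23.5, 24.8, 23.3 and 21.1 FPKM with anti-PDL1, which overlapped. Combination libraries measured 20.9, 18.6, 17.7 and 17.4 FPKM, and the highest of them lay just below the lowest control. The mean was 22.2 ± 1.12 FPKM (SD, n = 4) in controls and 18.6 ± 1.61 (SD, n = 4) in the combination, a log2 difference of -0.24 (-0.41 to -0.08, limma adjusted p = 0.57). Exercise libraries lay between, at 18.7 to 21.5 FPKM, with a log2 difference of -0.15 (-0.32 to 0.02). The combination libraries enter both this comparison and the contrast for which Rnf145 was noted, so its low values there are not independent of the choice of gene.

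Stard4, on chromosome 18, encodes a soluble carrier that moves cholesterol between membranes and is itself a sterol-regulated gene. It measured 12.4, 13.4, 9.80 and 10.4 FPKM in controls and 7.78, 5.94, 7.38 and 6.05 FPKM with anti-PDL1. All anti-PDL1 libraries lay below all controls, and the mean was 59.0% of the control mean, the lowest share among the 9 in that group. The log2 difference was -0.68 (-1.12 to -0.24, limma adjusted p = 0.095). Exercise libraries measured 14.9, 6.30, 7.01 and 7.88 FPKM. Exercise 1 exceeded every control while the other 3 exercise libraries lay below every control, and the exercise difference was -0.38 (-0.82 to 0.06, limma adjusted p = 0.33). Without exercise 1 it was -0.63 with a limma adjusted p of 0.036, a setting under which 611 of 11868 genes passed against 0 with all libraries. Combination libraries measured 7.21, 11.6, 8.87 and 11.5 FPKM and overlapped the controls.

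Mylip (chr13:45389742-45411940), the ligase that removes lipoprotein receptors, was higher on average in all 3 treated groups than in controls. It measured 4.15, 6.43, 4.34 and 8.57 FPKM in controls, 5.56, 11.0, 9.34 and 9.95 FPKM with exercise, and 11.99, 5.89, 8.34 and 9.71 FPKM with anti-PDL1. Both of these treated groups overlapped the controls. Control 4, at 8.57 FPKM, exceeded exercise library 1 (5.56) and anti-PDL1 libraries 2 and 3 (5.89 and 8.34). The log2 difference was 0.55 (0.04 to 1.05, limma adjusted p = 0.25) for exercise and 0.55 (0.04 to 1.06, limma adjusted p = 0.18) for anti-PDL1. In the combination, where values were 10.1, 6.43, 6.32 and 7.08 FPKM, the difference from control was 0.33 (-0.18 to 0.84, limma adjusted p = 0.72).

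The exporters were the least abundant of the 9. Abca1 (chr4:53030789-53159988), which loads cholesterol onto apolipoproteins, measured 4.83, 6.63, 1.44 and 3.03 FPKM in controls and 3.22, 2.67, 2.92 and 4.31 FPKM with anti-PDL1. The controls alone spanned the whole range of the other groups, with control 2 highest of all libraries and control 3 lowest. Log2 differences from control were -0.11 (-0.68 to 0.46) with anti-PDL1, -0.37 (-0.95 to 0.20) with exercise and -0.45 (-1.02 to 0.13) in the combination, with limma adjusted p of 0.84, 0.46 and 0.69. Without controls 1 and 2 these became 0.43, 0.17 and 0.10, all of opposite sign, so no direction can be given for Abca1.

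Abcg1 (chr17:31057694-31117984), which exports sterol to mature lipoprotein particles, measured 1.94, 3.70, 1.02 and 1.67 FPKM in controls. Exercise libraries lay close to each other at 1.20, 1.28, 1.22 and 1.21 FPKM. Anti-PDL1 libraries measured 2.09, 1.60, 1.75 and 4.05 FPKM, and combination libraries 1.89, 1.83, 1.70 and 1.21 FPKM. All 3 treated groups overlapped the controls. Log2 differences from control were 0.15 (-0.34 to 0.63) with anti-PDL1, -0.40 (-0.89 to 0.09) with exercise and -0.15 (-0.64 to 0.33) in the combination, with limma adjusted p of 0.74, 0.36 and 0.87. Without controls 1 and 2 they were 0.48, -0.06 and 0.19. The exercise difference was -0.17 without control 2 alone, and the anti-PDL1 difference was -0.07 without anti-PDL1 library 4. The size of each difference for Abcg1, and the direction of 2 of them, changed when these libraries were left out.

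Macrophages are a known site of high ABCA1 and ABCG1, and among the controls their markers varied together with Abca1. The 15 macrophage markers, none of them at 0 in any group, summed to 1644, 2086, 521 and 871 FPKM in controls 1 to 4, the same order as Abca1 in those libraries. With anti-PDL1 they summed to 417 to 858 FPKM, with exercise to 631 to 1081 FPKM and in the combination to 464 to 1356 FPKM. Marker sums and Abca1 had the same order in the anti-PDL1 libraries as well, but not with exercise or in the combination. Combination library 4 had a sum of 1356 FPKM with Abca1 at 2.32, and combination library 1 a sum of 723 with Abca1 at 3.40. In anti-PDL1 against control 14 of the 15 were below 0 with a median log2 difference of -1.07. By limma 0 passed the adjusted threshold and 9 an unadjusted p under 0.05. Of all genes 57.7% were below 0 in that contrast, and 23.5% had such a p. Other markers were also high in control 2, where 7 endothelial markers summed to 121 FPKM, 5 adipocyte markers to 122 FPKM and 4 skeletal muscle markers to 261 FPKM, against at most 63.6, 33.0 and 8.79 FPKM in any other library. All 6 tested endothelial markers were below 0 in anti-PDL1 against control (median log2 difference -0.54, 2 at an unadjusted p under 0.05). They were also below 0 in the combination against control (median -0.69, 5 at that p). Of all genes 58.1% were below 0 in the combination against control, and 8.2% had such a p. In both contrasts limma called 0 of the 6 after adjustment, against 0.253% and 0.0% of all genes. The part of these cell types in the levels of the 9 genes was not tested. Without controls 1 and 2, the anti-PDL1 differences were -0.37 for Srebf2, -0.25 for Scap, -0.50 for Insig1, 0.42 for Insig2, -0.52 for Stard4 and 0.44 for Mylip, with limma adjusted p between 0.61 and 0.66 and 4 genes called in all. Each kept its direction with a smaller size. For exercise the same omission gave -0.22 for Stard4, 0.10 for Srebf2, 0.07 for Insig1 and -0.13 for Insig2. For the combination it gave 0.18 for Insig2, -0.06 for Stard4, -0.03 for Srebf2, 0.16 for Insig1 and -0.29 for Rnf145.

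**Figure D3:**
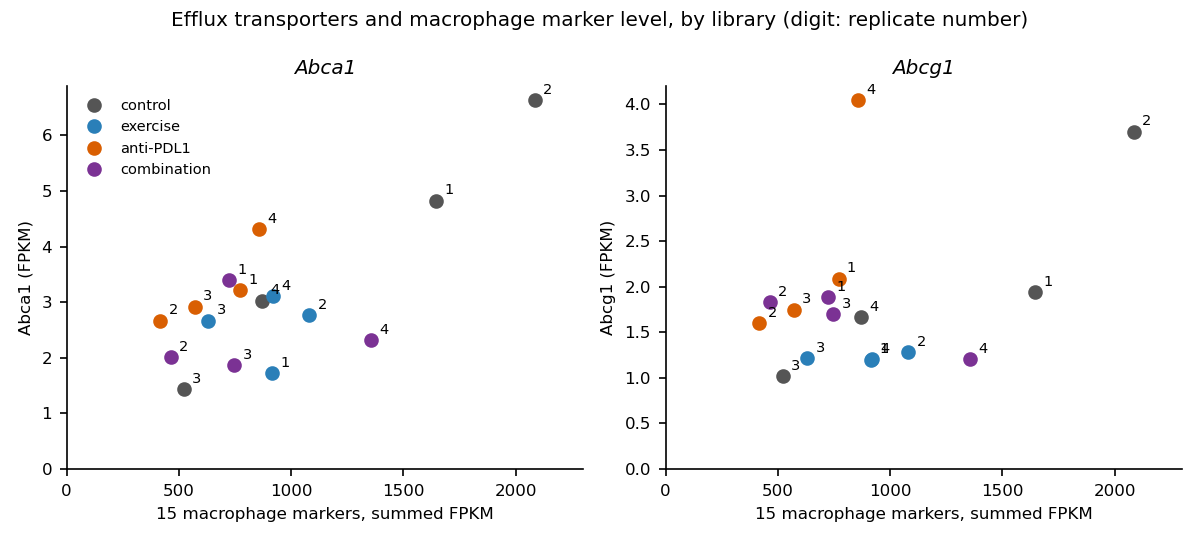
Abca1 and Abcg1 (vertical axes, FPKM) against the summed FPKM of 15 macrophage markers (horizontal axes) in the 16 libraries, coloured by group and numbered by replicate. Controls 1 and 2 have the highest marker sums (1644 and 2086) and the highest Abca1 values (4.83 and 6.63).

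Exercise against control asks how training alone related to these genes, and it shares its controls with the other contrasts against control. Mylip was the only gene of the 9 with an unadjusted p under 0.05, which 18.0% of all genes reached. By limma 0 of 9 passed the adjusted threshold, as did 0.0% of all genes. Srebf2, Insig1 and Insig2 had differences of 0.01, -0.02 and 0.09, with intervals that reach 0.27, 0.34 and 0.43 on the higher side.

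The combination against control gave 0 of 9 by limma at the adjusted threshold, against 0.0% of all genes. At an unadjusted p under 0.05 there were 2 of 9, Insig2 and Rnf145, against 8.2% of all genes. Rnf145 alone did not overlap the controls, in the lower direction, as 2.37% of all genes did not, and nothing is read from this because its low combination values had drawn attention to it. Against exercise alone, which asks what the antibody adds to training, the combination gave 0 of 9 by limma at the adjusted threshold, against 0.0% of all genes, and 0 of 9 at an unadjusted p under 0.05, against 13.6%. Insig2 had the largest of those differences, 0.32 (-0.02 to 0.66, limma adjusted p = 0.40).

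The interaction asks whether the difference made by the antibody was the same with and without exercise. It was 0.84 for Stard4 (0.22 to 1.46, limma adjusted p = 0.36) and 0.68 for Insig1 (0.16 to 1.20, limma adjusted p = 0.36). With the antibody these genes measured -0.68 and -0.58 relative to the group without it in the absence of exercise, and 0.16 and 0.10 in its presence. For Mylip it was -0.76 (-1.48 to -0.04, limma adjusted p = 0.38). By limma 0 of 9 passed the adjusted threshold, against 0.0% of all genes, and these 3 of 9 had an unadjusted p under 0.05, against 13.1% of all genes. Without exercise 1, the interaction for Stard4 was 1.08 with a limma adjusted p of 0.023, and 223 of 11868 genes passed against 0 with all libraries. The interaction contains the contrast for which Insig1 and Rnf145 were noted and is not independent of it.

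**Figure D4:**
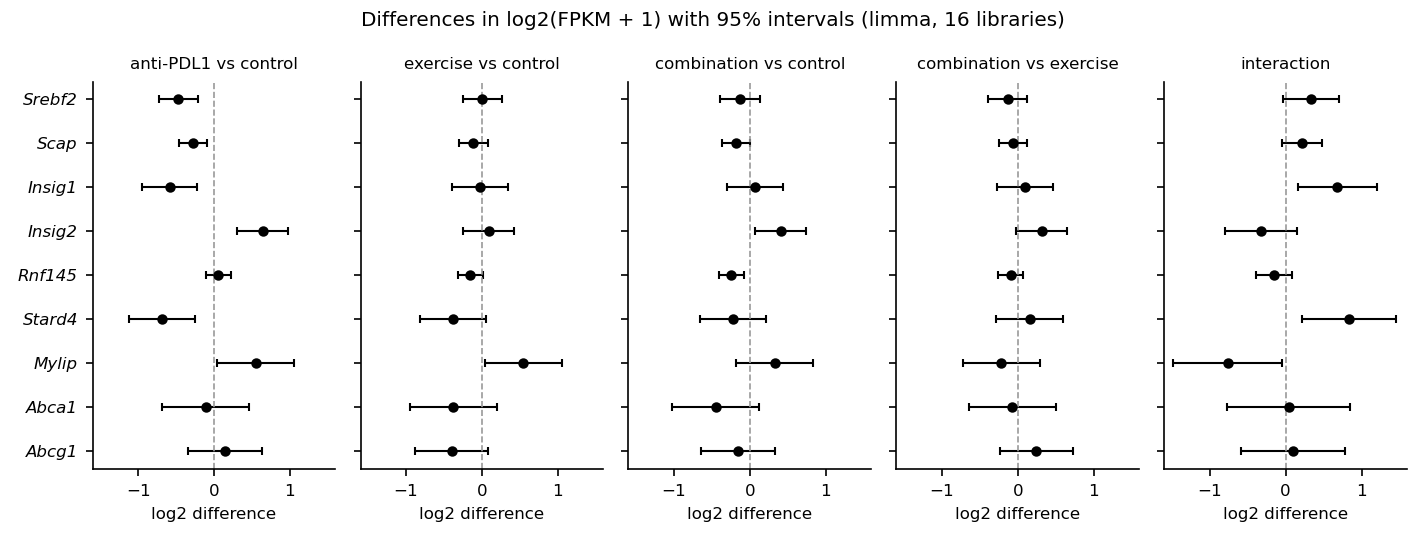
Difference in log2(FPKM + 1) with its 95% interval from limma (horizontal axes) for the 9 genes (vertical axis) in 4 contrasts and the interaction, over 16 libraries. The anti-PDL1 intervals of Srebf2, Scap, Insig1 and Stard4 lie below 0 and those of Insig2 and Mylip above it, and no adjusted p was under 0.05.

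The combination against anti-PDL1 is given as a description only. Insig1 measured 43.9, 47.2, 39.0 and 59.1 FPKM in the combination, where the lowest value barely exceeded the highest anti-PDL1 library, and the log2 difference was 0.66. Rnf145 measured at most 20.9 FPKM in the combination and at least 21.1 FPKM with anti-PDL1, with a log2 difference of -0.30. These were the genes of the 9 whose libraries did not overlap, 1 higher and 1 lower, in a contrast where 1.4% of all genes did not overlap in the higher direction and 0.843% in the lower. Differences for the others were 0.46 for Stard4, 0.34 for Srebf2, 0.10 for Scap, -0.22 for Mylip, -0.23 for Insig2, -0.30 for Abcg1 and -0.34 for Abca1.

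The genes of sterol synthesis, which SREBP2 switches on, give the setting for these values. Lower sterol enzymes with anti-PDL1 were known from earlier results of these libraries when the list was chosen. Its counts in that contrast, and in the interaction that contains it, are therefore descriptions. In anti-PDL1 against control all 20 listed enzymes were below 0 with a median log2 difference of -0.85, and 19 had an unadjusted p under 0.05. Of all genes 57.7% were below 0, with a median of -0.04, 23.5% had such a p, and 0.253% passed after adjustment. By limma with Benjamini-Hochberg adjustment 2 of the 20 fell: Idi1, which isomerizes an isoprenoid precursor, by 1.55 on the log2 scale (adjusted p = 0.034) and Cyp51, which demethylates lanosterol, by 1.14 (adjusted p = 0.044). Idi1 had a mean of 8.08 ± 2.58 FPKM (SD, n = 4) in controls and 2.08 ± 0.985 (SD, n = 4) with anti-PDL1. Neither call held without controls 1 and 2, where Idi1 differed by -1.30 (adjusted p = 0.44) and Cyp51 by -0.98 (adjusted p = 0.50), nor with any single library among control 1, 2 or 3, exercise 4 or anti-PDL1 2 or 4 left out. Cyp51 also missed the threshold without exercise 2, exercise 3 or anti-PDL1 3. Sqle, the squalene epoxidase, measured 53.7 ± 5.70 and 25.9 ± 5.79 FPKM (SD, n = 4 each), with a limma adjusted p of 0.056. Hmgcs1, an early synthase of the pathway, measured 62.4 ± 8.73 and 29.98 ± 8.39 FPKM (SD, n = 4 each), with a limma adjusted p of 0.073, and 58.3 ± 12.9 FPKM (SD, n = 4) in the combination. With exercise Hmgcs1 measured 88.96, 32.7, 38.6 and 37.8 FPKM (limma adjusted p = 0.39 against control). Sqle measured 64.15, 31.4, 31.7 and 29.5 FPKM with exercise (limma adjusted p = 0.24 against control). For both genes exercise 1 exceeded every control, while exercise 2, 3 and 4 lay below every control. The median of the 20 was -0.31 in exercise and -0.21 in the combination against control, -0.01 in the combination against exercise and 0.93 in the interaction, and limma called 0 of the 20 in each of these, with 2, 1, 0 and 15 at an unadjusted p under 0.05, where all genes gave 18.0%, 8.2%, 13.6% and 13.1%.

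Values for the other machinery that handles SREBP2 lay on either side of 0. Of 17 further genes of SREBP processing and sterol sensing, 10 were below 0 with anti-PDL1 with a median of -0.01, and by limma 0 passed the adjusted threshold and 4 an unadjusted p under 0.05. Both counts were near the shares of all genes, 57.7% below 0 and 23.5% at that p. Mbtps1, the first of the Golgi proteases, measured 59.4 ± 5.92 FPKM in controls, 59.0 ± 9.17 with anti-PDL1, 63.3 ± 7.15 in the combination and 76.4 ± 6.85 with exercise (SD, n = 4 each). Its log2 difference between exercise and control was 0.36 (0.11 to 0.60, limma adjusted p = 0.19). Mbtps2, the second protease, measured 12.3 ± 1.74 FPKM in controls and 10.3 ± 1.06 with exercise (SD, n = 4 each, limma adjusted p = 0.24). Srebf1, which encodes the related factor of fatty acid synthesis, had means of 20.5, 25.5, 20.4 and 20.2 FPKM in control, exercise, anti-PDL1 and combination, with a log2 difference of 0.31 (0.07 to 0.54, limma adjusted p = 0.20) for exercise.

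Of 18 tested genes of 20 listed for sterol uptake and transport, 7 were below 0 and 11 above in anti-PDL1 against control, with a median of 0.11. At an unadjusted p under 0.05, 3 were higher and 4 lower, and 0 passed by limma after adjustment. For this and the next lists, the shares of all genes were 57.7% below 0, 23.5% at that p and 0.253% after adjustment. Among 14 tested of 16 listed LXR receptors and targets the median was -0.22, with 9 below 0, 3 at an unadjusted p under 0.05 and 0 by limma after adjustment. Nr1h2, the LXR receptor found in most tissues, measured 45.8 ± 4.88 FPKM in controls and 62.6 ± 3.17 with anti-PDL1 (SD, n = 4 each). These groups did not overlap, as 3.57% of all genes did not in the higher direction. The log2 difference was 0.45 (0.22 to 0.67), with a limma adjusted p of 0.063. Nr1h2 was also higher on average with exercise, at 56.6 ± 6.82 FPKM, and in the combination, at 58.1 ± 7.24 (SD, n = 4 each). Those log2 differences from control were 0.30 (0.07 to 0.52, limma adjusted p = 0.20) and 0.33 (0.11 to 0.56, limma adjusted p = 0.57). Nr1h3, the LXR receptor of macrophages and liver, did not pass the filter, at 1.07 ± 1.04 FPKM in controls and 0.458 ± 0.111 with anti-PDL1 (SD, n = 4 each). Apoe, the apolipoprotein that accepts exported sterol, measured 362 ± 227 FPKM in controls and 135 ± 60.7 with anti-PDL1 (SD, n = 4 each, limma adjusted p = 0.16), so its controls spread as widely as those of Abca1. Lpcat3, which remodels phospholipids, measured 4.98 ± 2.55 and 3.48 ± 1.63 FPKM (SD, n = 4 each, limma adjusted p = 0.42). Of 9 tested genes of 12 listed for sterol esters and oxysterols, 5 were below 0 with a median of -0.06, 1 at an unadjusted p under 0.05 and 0 by limma after adjustment. Soat1, which stores cholesterol as esters, measured 12.7 ± 1.15 and 15.9 ± 2.42 FPKM (SD, n = 4 each, limma adjusted p = 0.27).

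**Figure D5:**
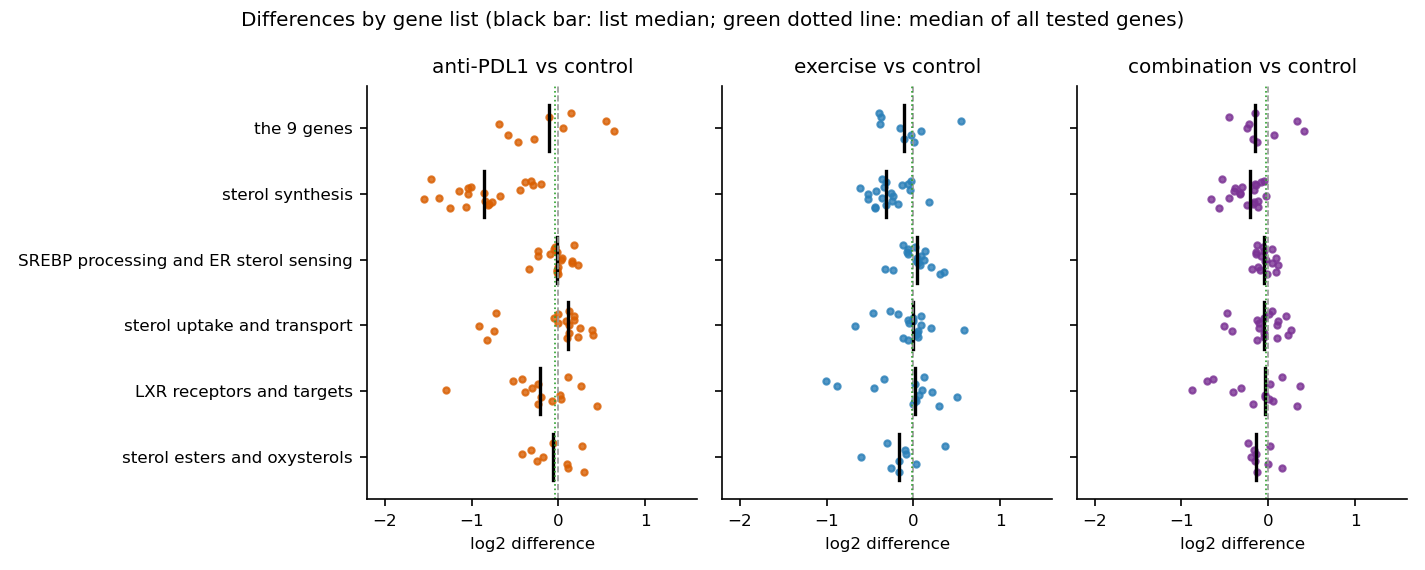
Differences in log2(FPKM + 1) from control (horizontal axes) for the 9 genes and 5 gene lists (vertical axis) in 3 contrasts that share the 4 controls. Points are genes, black bars list medians and green dotted lines the median of all tested genes. The sterol synthesis median is -0.85 with anti-PDL1, -0.31 with exercise and -0.21 in the combination. The lists were chosen with the lower sterol enzymes with anti-PDL1 already known.

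Across the 16 libraries, likeness between genes was measured over all groups at once. The values are Pearson correlations of log2(FPKM + 1) over libraries that share their groups and preparation, and they are descriptions. The median correlation with the 20 enzymes was 0.88 for Stard4, 0.76 for Insig1, 0.74 for Scap and 0.71 for Srebf2. It was -0.75 for Insig2, -0.49 for Mylip, -0.34 for Rnf145, -0.18 for Abcg1 and -0.07 for Abca1. The genes most like Insig1 included Nxpe4 (0.91), Tmem242 (0.88), Hmgcs1 (0.86) and the squalene synthase gene Fdft1 (0.85). Those most like Stard4 included Gm38481 and Vrk2 (0.95 each) and Kif4 and Hmgcs1 (0.94 each). Those most like Srebf2 were Fam83d (0.91), Fmnl3 and C1qtnf12 (0.89 each), and Cdc20 and Ccnb2 (0.88 each). At least Cdc20 and Ccnb2 among them act in cell division. Those most like Abca1 were Ctsd (0.95), a lysosomal protease, Creg1 (0.93), Selenbp1 (0.92), and Hpse and Mcfd2 (0.90 each). No gene came as close to Rnf145, whose nearest were Spred2 and Ptpn13 (0.73 each), Prickle1 (0.71), Afg1l (0.70) and Ccdc71l (0.69).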

How the data were processed

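The authors deposited FPKM per gene for each of the 16 libraries, made from total RNA extracted with Trizol, per the labels' protocols. The submitters' processing notes list HISAT, Bowtie2 and GRCm38.p6 without versions or roles. The program that computed FPKM is not given in the sources used here. To look for read steps, 20309 values in 1479 low genes were divided by the smallest value of the gene. Of the quotients 38.3% were within 0.15 of an integer. The smallest values themselves were included and match by definition, and no share for evenly spread values was computed. The 38.3% therefore does not show read steps. Reads were not recovered, and depth is unknown. Groups came from the sample titles. Values were taken as log2(FPKM + 1), a scale that understates the change of low genes. The filter kept entries that reached 1 FPKM in 4 or more libraries. A single limma fit (limma 3.58.1, R 4.3.3, trend and robust settings) covered all 16 libraries with no term but the group. Benjamini-Hochberg adjustment ran over the 11868 genes of each contrast, and an adjusted p under 0.05 was called. The fit was checked on simulated data. Coordinates come from the RefSeq annotation of GRCm38.p6. The 9 genes and the gene lists were chosen with earlier results of these data known, including the lower sterol enzymes with anti-PDL1. Named genes were the 9, 11 pathway genes picked by role, list members past the threshold, and the 5 genes most correlated with each of Insig1, Rnf145, Abca1, Stard4 and Srebf2, of which some are not reported here. The alternatives were other moderation, normalization, filters and pseudocounts, a fit of the compared groups alone, a block on replicate number, library weights, leaving out each library, and leaving out controls 1 and 2.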

Additional observations from a re-analysis of the deposited data

How the results depend on the processing

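No gene of the 9 passed in anti-PDL1 against control, and 24 of 27 alternatives also gave 0. Library weights gave 4, Srebf2, Insig1, Insig2 and Stard4 (limma adjusted p 0.022, 0.040, 0.022 and 0.030), with 835 of 11868 genes. Leaving out each library in turn gave 0 to 3: without control 4, Srebf2 and Insig2 passed, and without exercise 1, Srebf2, Insig2 and Stard4 did. All genes called in that contrast ranged from 4 without controls 1 and 2 to that number, around 30. In exercise against control, library weights gave 2, Stard4 and Mylip, as 2274 of 11868 genes passed, and leaving out each library gave 0 to 1. In the interaction leaving out each library gave 0 to 1. In the combination against control and against exercise all 27 alternatives gave 0. Same-numbered libraries did not deviate together (median correlation -0.07 over 24 pairs, against -0.01 over 72 others). No pairing by number was thus seen, but a pairing with a small effect could be missed, so whether the numbers pair the samples is unknown. With the replicate block, anti-PDL1 against control gave 0 of 9 and 15 genes in all, and Insig1 differed by -0.58 (limma adjusted p = 0.11). Srebf2, Scap, Insig1, Insig2, Rnf145, Stard4 and Mylip kept their direction in that contrast under all 27 alternatives. Idi1 passed under 18 and Cyp51 under 14 of 27 alternatives, all negative; with the replicate block Cyp51 did not pass (limma adjusted p = 0.063). For differences that reversed, the cause was not tested. With library weights they were Abcg1 in anti-PDL1 against control (-0.025) and Srebf2 in exercise against control (-0.046). Without controls 1 and 2 they were Abca1 in anti-PDL1 (0.43), exercise (0.17) and the combination (0.10) against control and in the interaction (-0.51), Abcg1 in the combination against control (0.19) and in the interaction (-0.24), and Insig1 (0.065) and Insig2 (-0.13) in exercise against control. With pseudocounts of 0.1 and 0.01 the interaction for Abca1 was -0.00198 and -0.00918. Leaving out each library gave these ranges: anti-PDL1 against control, Abca1 -0.41 to 0.14 and Abcg1 -0.066 to 0.37; exercise against control, Srebf2 -0.081 to 0.10, Insig1 -0.14 to 0.070 and Insig2 -0.023 to 0.20; combination against control, Insig1 -0.038 to 0.16 and Abcg1 -0.33 to 0.073; combination against exercise, Insig1 -0.015 to 0.21 and Abca1 -0.20 to 0.0028; interaction, Abca1 -0.21 to 0.34 and Abcg1 -0.12 to 0.31. Abca1 and Abcg1 gave no value at a mean of at least 5 FPKM. The 4 libraries a group and an unknown depth limit what differences could be seen.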
